A study of Mus musculus with 12 samples.

Results

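Cytosolic ribosomal proteins are the protein components of the large and small ribosomal subunits, and their mRNAs are described here in mouse eggs depleted of the mRNA decapping proteins Dcp1a and Dcp2. Genes were taken where the single symbol of a probe set began with Rpl or Rps and a digit, or was Rpsa, Rplp0, Rplp1, Rplp2 or Fau, with the Rps6k kinases left out. This gave 52 of the 18193 genes with a single-symbol probe set, measured by 108 probe sets. Each gene was represented by its brightest probe set over the 12 arrays, and 41 of the 52 were bright enough to test, out of 6996 such genes in all. Among the 52, 44 encode subunit proteins proper, 22 in each subunit. There were also 6 paralogs, 1 pseudogene (Rps15a-ps6) and 1 gene, Rps19bp1, whose product binds the small subunit protein Rps19 but is not a ribosomal subunit.

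The samples were pools of 30 eggs of the CF1 mouse strain, obtained from full-grown germinal vesicle oocytes that were microinjected with siRNA, held in milrinone, which blocks maturation, for 20 h, and matured for 18 h to metaphase II. The 4 groups had received siRNA pools against Dcp1a and Dcp2 together (the double knockdown), against Dcp1a, against Dcp2, or control siRNA. Each group had 3 independent biological replicates, with 1 Affymetrix array per pool. All groups, the control included, were injected, cultured and matured in vitro.

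Dcp2 is the enzyme that removes the 5′ cap of mRNAs and Dcp1a is its cofactor, and the loss of the cap opens an mRNA to decay from its 5′ end. Ribosomal proteins are made in matched amounts, and in mammals their mRNAs begin with a 5′ terminal oligopyrimidine (TOP) stretch through which growth signals set their translation as a group. A growing oocyte stores ribosomes and maternal mRNA, transcription has stopped in the full-grown oocyte, and many maternal mRNAs are degraded during maturation.

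The Dcp1a probe set averaged 791 ± 387 intensity units in the double knockdown, 1011 ± 365 with Dcp1a siRNA, 8031 ± 1990 with Dcp2 siRNA and 8632 ± 3553 in controls (SD, n = 3 each). The Dcp2 probe set averaged 4.93 ± 0.0577 in the double knockdown and 4.97 ± 0.0577 with Dcp2 siRNA, at the floor of the scale, against 46.2 ± 12.6 with Dcp1a siRNA and 48.1 ± 29.2 in controls (SD, n = 3 each). Across probe sets, replicates correlated at r between 0.958 and 0.989 in the double knockdown, 0.991 and 0.992 with Dcp1a siRNA, 0.938 and 0.973 with Dcp2 siRNA and 0.938 and 0.967 in controls. Control replicate 1 stood apart: it correlated at 0.978 to 0.988 with the Dcp1a siRNA arrays, against 0.938 to 0.954 with the other controls. Of 12 oocyte markers, 12 were tested, and their summed intensity was 173814 to 188208 in the double knockdown, 161094 to 179015 with Dcp1a siRNA, 114810 to 151290 with Dcp2 siRNA and 114804 to 154985 in controls. Of 13 cumulus and granulosa cell markers on the array, 11 were under 32 units on every array, 6 of them at 5 or under. Of 9 blood and stromal markers, 8 were under 32 on every array. The values are relative within an array, so fewer eggs of one kind in a pool and less of an mRNA per egg cannot be told apart. An intensity ranks arrays for 1 probe set and does not rank genes by abundance.

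The starts of 6 of these genes are shown because ribosomal protein genes are known for pyrimidine-rich transcription starts, and because they set the genes with a large rise beside genes with a small change. Each line holds 170 bases before and 20 after the annotated start from RefSeq (GRCm38.p6), 5′ to 3′ on the gene's strand. Only subunit genes with a single annotated start were considered. The first 3 genes had the largest rises past the threshold among them in the double knockdown against control, with log2 changes of 3.02, 2.81 and 2.73. The last 3 had the smallest changes among them, with log2 changes of 0.26, 0.34 and 0.43. Capitals mark CTTCCGG, the reverse complement of the ETS factor core CCGGAAG.
Rps4x (chrX:102189372-102189561, minus strand): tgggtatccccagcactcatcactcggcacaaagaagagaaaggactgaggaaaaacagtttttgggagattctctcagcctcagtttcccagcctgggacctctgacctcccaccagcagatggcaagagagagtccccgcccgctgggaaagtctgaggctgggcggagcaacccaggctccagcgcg
Rpl7a (chr2:26910637-26910826, plus strand): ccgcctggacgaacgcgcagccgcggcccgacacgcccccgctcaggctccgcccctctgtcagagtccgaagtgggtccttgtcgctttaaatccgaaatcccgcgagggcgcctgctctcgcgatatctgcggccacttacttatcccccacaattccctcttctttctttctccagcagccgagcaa
Rps15 (chr10:80292261-80292450, plus strand): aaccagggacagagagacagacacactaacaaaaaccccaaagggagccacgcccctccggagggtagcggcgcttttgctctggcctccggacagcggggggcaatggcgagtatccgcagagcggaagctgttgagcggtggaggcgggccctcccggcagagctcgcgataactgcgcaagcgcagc
Rps28 (chr17:33824543-33824732, minus strand): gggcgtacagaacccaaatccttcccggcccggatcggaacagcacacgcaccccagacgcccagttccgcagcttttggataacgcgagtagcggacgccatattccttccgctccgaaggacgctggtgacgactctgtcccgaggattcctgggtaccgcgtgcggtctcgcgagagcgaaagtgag
Rps7 (chr12:28635934-28636123, minus strand): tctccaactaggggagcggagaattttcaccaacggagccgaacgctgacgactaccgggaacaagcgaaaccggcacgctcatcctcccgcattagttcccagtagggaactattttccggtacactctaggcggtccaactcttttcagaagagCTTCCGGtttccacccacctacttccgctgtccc
Rplp2 (chr7:141447481-141447670, plus strand): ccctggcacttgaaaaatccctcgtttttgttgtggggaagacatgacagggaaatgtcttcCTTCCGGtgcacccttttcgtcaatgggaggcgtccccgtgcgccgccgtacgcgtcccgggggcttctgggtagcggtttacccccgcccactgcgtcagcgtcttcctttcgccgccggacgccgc

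RefSeq windows of 300 bases, 250 before and 50 after the start, were at hand for 35 of the 41 tested genes, as 42 windows. The pyrimidine stretch CTTTCC, read on the gene's strand only, was in 38.1% of these windows, against 14.1% of all 32851 windows. CTCTTTC, also read on the gene's strand and free to overlap the first motif, was in 14.3% of the ribosomal protein windows and 3.99% of all windows. CCGGAAG on either strand was in 42.9% and 8.86%. AAGATGG, the core bound by YY1, was on either strand in 16.7% and 6.34%. The motifs thus stood in a larger share of these windows than of all windows. The genes with CTTTCC had a median log2 change of 1.26 in the double knockdown against control (n = 15), against 0.78 for those without it (n = 20). For CCGGAAG the medians were 0.73 with it (n = 18) and 1.18 without it (n = 17). A match is a description of these letters and not a measured binding site.

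In the double knockdown, 17 of the 41 tested ribosomal protein genes rose against control and 0 fell (limma, adjusted p under 0.05), while 6.62% of all tested probe sets were called higher and 2.1% lower. The median log2 change of the 41 genes was 1.18 (range −0.82 to 3.42) and 37 of 41 were above 0, whereas the median over all 6996 genes was 0.00, with 6.78% called higher. At an unadjusted p under 0.05, 25 of the 41 were higher and 0 lower, against 1171 higher and 794 lower of the 6996 genes. All 3 double knockdown arrays lay above all 3 controls for 24 of 41 genes, against 12.9% of all tested probe sets. They lay above all 9 other arrays for 22 of 41, against 8.71% of probe sets. The oocyte markers also moved: 2 of 12 were called higher, the zona pellucida genes Zp2 (log2 change 2.08 ± 0.42, adjusted p = 0.0122) and Zp3 (2.14 ± 0.47, adjusted p = 0.0187), and their median log2 change was 0.71. Of the cumulus and granulosa markers, Nr5a2 made up nearly all of the summed intensity, and it read 1408, 1474 and 1203 in the double knockdown, against 2131, 1707 and 1499 in controls (not past the threshold, limma adjusted p = 0.237). The part of these differences in the rise of the ribosomal protein genes was not tested. The count of 17 was 11 without control replicate 2, 10 without double knockdown replicate 2, 7 with no filter on low signal and 5 when only the arrays of these 2 groups were fitted. Over all probe sets, 768 were called higher in the main fit, and 388, 368, 458 and 226 in these settings, so calls fell across the array. The count of ribosomal protein genes was 15 of 37, with a median of 0.92, without the 4 genes that reached the limit for testing only with the double knockdown arrays, a setting chosen after seeing the data. With values under 32 set to 32, the median over the 41 genes was 0.93.

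**Figure D1:**
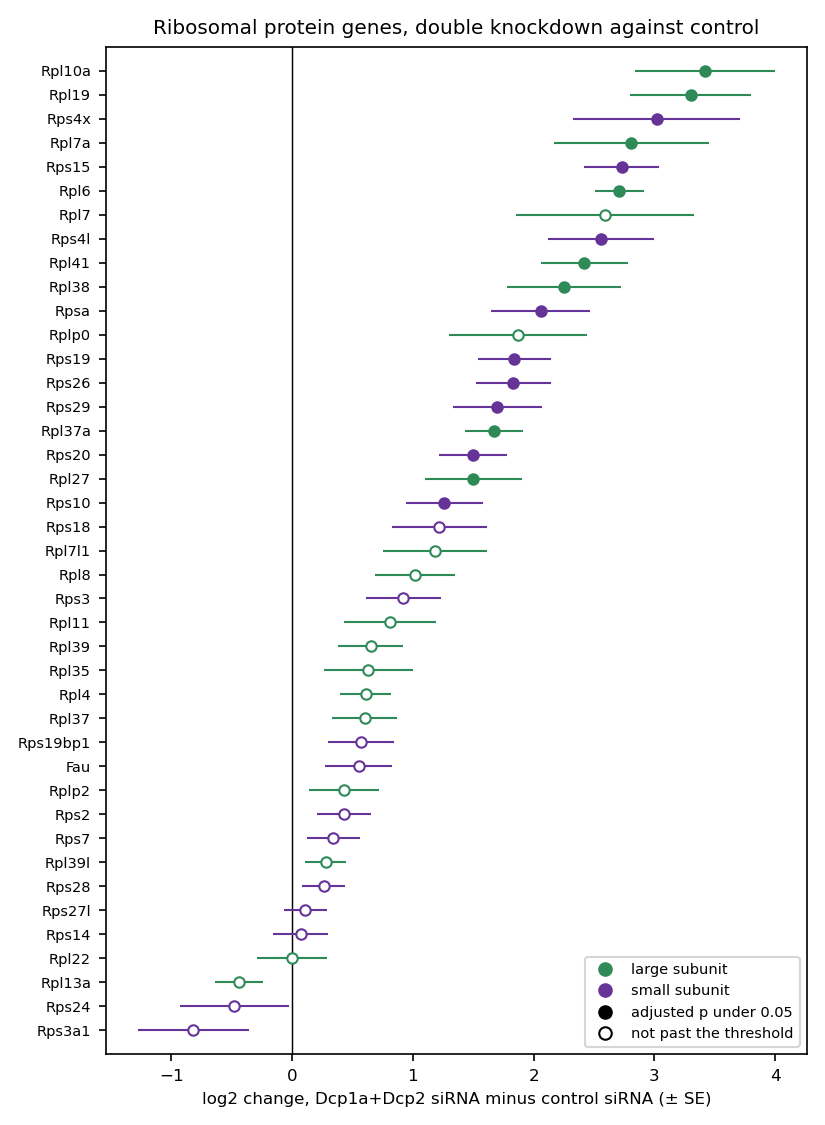
Log2 change of the 41 tested ribosomal protein genes in the double knockdown against control (horizontal axis, ± SE of the limma fit) by gene (vertical axis). Filled points passed an adjusted p of 0.05; green marks Rpl genes and purple Rps genes, Rps19bp1 and Fau among the latter. For Rps19, Rps4l, Rpl7 and Rpl7l1, with controls near the floor, the plotted fit is not a bound. The 17 filled points all lie to the right of 0, and the changes run from −0.82 to 3.42.

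Among large subunit genes, the largest rise was in Rpl10a, which encodes the protein of the L1 stalk, the arm of the ribosome that handles the outgoing tRNA. Its probe set read 3436, 3778 and 2250 in the double knockdown, 106.3, 165.3 and 101.3 with Dcp1a siRNA, 229.7, 126.0 and 218.6 with Dcp2 siRNA, and 161.7, 160.9 and 917.3 in controls. Every double knockdown array was above every other array, and control replicate 3 was far above the other controls. The log2 change against control was 3.42 ± 0.58 (SE; limma adjusted p = 0.00494), and 4.26 without control replicate 3.

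Rpl19, a protein near the exit of the peptide tunnel, read 1154, 1302 and 757.8 in the double knockdown, 57.2, 60.4 and 56.7 with Dcp1a siRNA, 116.2, 59.4 and 59.8 with Dcp2 siRNA, and 72.4, 60.2 and 272.2 in controls. The double knockdown arrays lay above all 9 others, the other groups overlapped, and control replicate 3 was again the highest control. The log2 change was 3.30 ± 0.50 (limma adjusted p = 0.00251), and 3.98 without control replicate 3. Rpl7a, which contacts the core of the large subunit RNA, read 1274, 1333 and 1554 in the double knockdown, 224.1, 249.8 and 269.4 with Dcp1a siRNA, 158.5, 132.0 and 77.3 with Dcp2 siRNA, and 98.9, 102.2 and 762.4 in controls. Its log2 change was 2.81 ± 0.64 (limma adjusted p = 0.0204), and 3.78 without control replicate 3. Its gene start is the second sequence above.

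Rpl6, a large subunit protein on the solvent side, had the smallest p of the group. It read 458.8, 669.6 and 695.0 in the double knockdown, 74.1, 70.1 and 75.7 with Dcp1a siRNA, 75.7, 70.0 and 90.3 with Dcp2 siRNA, and 81.9, 86.0 and 108.8 in controls. The 9 arrays without both siRNAs lay close together, and the log2 change was 2.71 ± 0.20 (limma adjusted p = 2.72e-05). Rpl41, a very short peptide at the interface of the subunits, read 8206, 7444 and 4251 in the double knockdown, 1024, 1261 and 1131 with Dcp1a siRNA, 2432, 1786 and 1951 with Dcp2 siRNA, and 1038, 753.3 and 2150 in controls. Its rise of 2.42 ± 0.36 on the log2 scale (limma adjusted p = 0.00242) was the largest among the brighter genes.

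Rpl38, which in mice is known for its part in the translation of Hox mRNAs, read 1008, 1192 and 1103 in the double knockdown, 151.0, 197.8 and 226.3 with Dcp1a siRNA, 172.8, 222.6 and 113.0 with Dcp2 siRNA, and 94.5, 303.5 and 430.8 in controls (log2 change 2.25 ± 0.47, limma adjusted p = 0.0139). Rpl37a, a zinc-binding protein, rose by 1.67 ± 0.24 (limma adjusted p = 0.00176), with 487.9 to 735.6 in the double knockdown and 145.6 to 233.4 in controls. Rpl27 was the smallest large subunit rise past the threshold, at 1.50 ± 0.40 (limma adjusted p = 0.0416), and it passed in 5 of the 12 fits that each left out 1 array.

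Rpl7 came close without passing. It read 305.9, 258.2 and 487.6 in the double knockdown, 22.4, 34.1 and 25.4 with Dcp1a siRNA, 31.6, 20.5 and 17.4 with Dcp2 siRNA, and 30.3, 21.7 and 269.7 in controls. Control replicate 3 lay within the range of the double knockdown, and the other 8 arrays without both siRNAs were near the limit of 32 units used for testing. As 2 of the 3 controls were under that limit, the difference is given as a bound, at least 5.19-fold above controls in the double knockdown (limma adjusted p = 0.0557). The adjusted p was 8.47e-05 (limma) without control replicate 3, the control that lay within the double knockdown range. That was the only 1 of the 12 fits leaving out 1 array in which Rpl7 passed. The largest adjusted p among the 12 was 0.211.

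**Figure D2:**
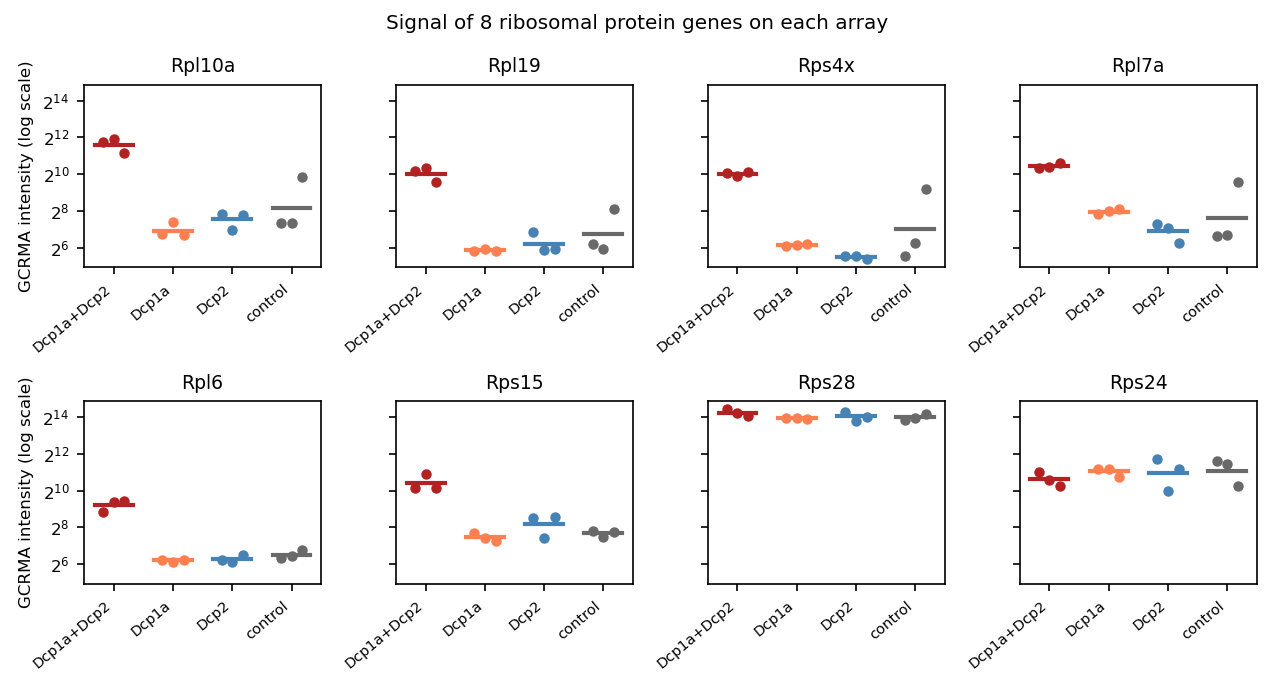
GCRMA intensity (vertical axis, log scale) of 8 ribosomal protein genes on the 12 arrays by siRNA (horizontal axis). Points are arrays, replicates 1 to 3 from left to right within a group, and lines are group means of log2 values. Rpl10a, Rpl19, Rps4x, Rpl7a, Rpl6 and Rps15 are highest on the 3 double knockdown arrays, and control replicate 3 is raised for the first 4 of them. For Rps28 and Rps24 the double knockdown overlaps control.

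In the small subunit, Rps4x, an X-linked gene for an RNA-binding protein of the subunit body, had the largest rise. It read 1048, 941.4 and 1124 in the double knockdown, 66.7, 70.8 and 72.1 with Dcp1a siRNA, 46.2, 45.8 and 41.3 with Dcp2 siRNA, and 46.0, 76.7 and 585.3 in controls. Control replicate 3 stood between the other controls and the double knockdown. The log2 change was 3.02 ± 0.69 (limma adjusted p = 0.0211), and 4.12 without control replicate 3.

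Rps15, which reaches towards the decoding site, read 1140, 1889 and 1129 in the double knockdown, 206.2, 171.7 and 154.2 with Dcp1a siRNA, 363.5, 171.1 and 371.5 with Dcp2 siRNA, and 218.7, 179.0 and 214.7 in controls. Here the 3 controls agree, and the log2 change was 2.73 ± 0.31 (limma adjusted p = 0.000482). Rpsa, which is also known as the laminin receptor precursor, read 561.3, 769.3 and 494.6 in the double knockdown, 103.9, 97.8 and 129.6 with Dcp1a siRNA, 138.4, 173.9 and 142.4 with Dcp2 siRNA, and 98.3, 91.9 and 323.5 in controls (log2 change 2.06 ± 0.41, limma adjusted p = 0.0107). The double knockdown arrays lay above all 9 others, and the other groups overlapped.

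Rps26, at the channel through which mRNA leaves the ribosome, read 304.4, 341.9 and 384.2 in the double knockdown, 75.2, 73.0 and 75.4 with Dcp1a siRNA, 75.4, 63.1 and 75.4 with Dcp2 siRNA, and 71.8, 69.8 and 176.2 in controls (log2 change 1.83 ± 0.31, limma adjusted p = 0.00452). Rps29, a zinc-binding protein of the subunit head, was among the brightest probe sets and still rose, with 15715, 15604 and 15045 in the double knockdown, 3698, 4670 and 3526 with Dcp1a siRNA, 7919, 4663 and 3504 with Dcp2 siRNA, and 2755, 4868 and 7957 in controls. Its log2 change was 1.70 ± 0.37 (limma adjusted p = 0.0171), and the double knockdown arrays lay within a narrow band above all others. Rps20, of the subunit head, rose by 1.50 ± 0.28 (limma adjusted p = 0.00776), and Rps10, a target of ribosome quality control, by 1.26 ± 0.32 (limma adjusted p = 0.0316).

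Rps19, mutated in Diamond-Blackfan anaemia in humans, was dim on every array. It read 59.3, 92.4 and 41.4 in the double knockdown, 11.9, 12.2 and 12.2 with Dcp1a siRNA, 12.3, 15.3 and 15.6 with Dcp2 siRNA, and 12.3, 16.4 and 24.3 in controls. Since the controls were under 32 units, the rise is given as a bound, at least 1.91-fold (limma adjusted p = 0.0042). This bound takes each control array at 32 units or its own value, whichever is higher.

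Of the P-stalk proteins, which recruit the elongation factors, Rplp0 and Rplp2 were tested and neither passed. Rplp0 read 1490, 1465 and 1276 in the double knockdown, 702.6, 498.0 and 739.8 with Dcp1a siRNA, 760.2, 496.6 and 920.6 with Dcp2 siRNA, and 1248, 177.9 and 258.0 in controls. Control replicate 1, the array that stood apart across the transcriptome, was the only control near the double knockdown. The log2 change was 1.87 ± 0.57 (limma adjusted p = 0.0686), and 2.72 with an adjusted p of 0.00067 without that array. That was the only 1 of the 12 fits leaving out 1 array in which Rplp0 passed, and the largest adjusted p was 0.247. Without that array, 1816 of all tested probe sets were called higher, against 768 with all arrays. Rplp2 had a log2 change of 0.43 ± 0.29 (limma adjusted p = 0.333). Rpl12, at the base of the stalk, was listed at 4.9 on all 12 arrays.

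Rpl11, a partner of the 5S RNA and a binder of the p53 regulator Mdm2, had a log2 change of 0.81 ± 0.38 (limma adjusted p = 0.186), with 979.3, 704.8 and 763.0 in the double knockdown and 355.7, 376.0 and 730.9 in controls. Fau, a ubiquitin-like protein fused to the small subunit protein Rps30, had 0.55 ± 0.28 (limma adjusted p = 0.225). Of 5 tested tunnel exit proteins, 1 rose by its brightest probe set, Rpl19, against 6.78% of all genes, and their median log2 change was 0.63. Rpl35 counts here as not past the threshold, although its 4 other probe sets were called higher. Of 5 tested proteins of the mRNA channel and decoding site, 2 rose, Rps15 and Rps26, and the median was 0.92.

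Of the 5 tested genes that are paralogs or not subunits, 1 rose, Rps4l, against 6.78% of all genes, and their median log2 change was 0.57. Rps4l and Rpl7l1 reached the limit for testing only with the double knockdown arrays. Rps4l, a close copy of Rps4x, read 82.8, 80.7 and 82.8 in the double knockdown, 34.5, 31.2 and 28.9 with Dcp1a siRNA, 30.3, 15.0 and 11.7 with Dcp2 siRNA, and 12.2, 7.8 and 28.6 in controls. It exceeded controls by at least 2.57-fold in the double knockdown (limma adjusted p = 0.00508). Signal from Rps4x mRNA in this probe set was not tested. Rps27l, a p53-responsive paralog of Rps27, read 10704, 10114 and 11590 in the double knockdown and 12151, 10375 and 7861 in controls (log2 change 0.11 ± 0.18, limma adjusted p = 0.685). Rpl39l, the germline paralog of Rpl39, had 0.28 ± 0.17 (limma adjusted p = 0.296) and did not pass. Rpl7l1, whose controls were all under 32 units, was at least 1.41-fold above them in the double knockdown without passing (limma adjusted p = 0.11).

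Several members overlapped between the double knockdown and control. Rps28, at the mRNA exit channel and the brightest of the group, read 21923, 19374 and 17050 in the double knockdown, 15545, 15728 and 15328 with Dcp1a siRNA, 19724, 14345 and 16552 with Dcp2 siRNA, and 14500, 15750 and 18642 in controls. Its log2 change was 0.26 ± 0.18 (limma adjusted p = 0.351). Rps14, a platform protein of the small subunit, had a log2 change of 0.07 ± 0.23 and Rpl22, an RNA-binding protein of the large subunit, −0.00 ± 0.29. The dimmer tested probe sets of Rpl22 had −0.45 ± 0.25 and −0.90 ± 0.41, neither past the threshold.

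A few genes were below control on average, none past the threshold. Rps3a1, of the subunit platform, read 166.7, 110.7 and 282.7 in the double knockdown, 280.7, 304.7 and 389.0 with Dcp1a siRNA, 76.7, 250.2 and 69.8 with Dcp2 siRNA, and 282.8, 285.9 and 355.3 in controls. The highest double knockdown array lay just under the lowest control, and the log2 change of −0.82 ± 0.46 did not pass (limma adjusted p = 0.256). Rpl13a, known in humans for a role in silencing inflammatory mRNAs, read 3493, 2776 and 3542 in the double knockdown, against 4001, 4633 and 4585 in controls (log2 change −0.44 ± 0.20, limma adjusted p = 0.191). Rps24, another small subunit protein mutated in Diamond-Blackfan anaemia in humans, read 2072, 1549 and 1196 in the double knockdown, against 3081, 2750 and 1218 in controls (log2 change −0.48 ± 0.45, limma adjusted p = 0.495).

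The other 10 tested genes did not pass, and their log2 changes ran from 0.34 in Rps7 to 1.22 in Rps18. Of these, Rps18, whose protein bridges the subunits at the head, read 1119, 1243 and 1210 in the double knockdown, 336.3, 400.2 and 278.4 with Dcp1a siRNA, 373.9, 490.0 and 298.9 with Dcp2 siRNA, and 276.3, 480.3 and 1008 in controls. The double knockdown arrays were above all others, and the adjusted p was 0.0769 (limma, log2 change 1.22 ± 0.39). Rpl8, which lies near the peptidyl transferase centre, had 1.02 ± 0.33 and Rps3, at the mRNA entry site, 0.92 ± 0.31. Rpl4, which lines the peptide tunnel, had 0.61 ± 0.21. Of the other 6, Rpl39, Rpl35, Rpl37, Rps19bp1, Rps2 and Rps7 had log2 changes between 0.34 and 0.65. A further 11 genes were too dim to test: Rpl12, Rpl14, Rpl22l1, Rpl27a, Rpl3l, Rps15a-ps6, Rps16, Rps25, Rps27, Rps6 and Rps9. Of these, 10 were under 32 on all 12 arrays. Rps6, the substrate of the S6 kinases, was listed at 5.0 on every array, which bounds its probe set and not the mRNA. Rpl22l1, a paralog of Rpl22, was the exception and read 37.0, 6.1 and 34.2 in the double knockdown, against 6.1, 5.9 and 23.9 in controls.

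In each single knockdown against control, no ribosomal protein gene passed the threshold. With Dcp1a siRNA against control, 0 of 41 passed in limma, against 0.0173% of all tested probe sets called higher and 0.0345% lower. At an unadjusted p under 0.05, 1 gene was higher and 2 were lower, against 215 higher and 128 lower of the 6996 genes. The median log2 change was −0.20, against 0.10 over all genes. It was 0.04 without control replicate 3, so its sign rested on that array. The smallest p were for Rps4l, which was near or under 32 units in both groups and gets no fold (limma adjusted p = 0.853), and for Rps7 (log2 change −0.59 ± 0.22, adjusted p = 0.853).

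With Dcp2 siRNA against control, 0 of 41 passed in limma, against 0% of probe sets called higher and 0.0173% lower. At an unadjusted p under 0.05, 1 was higher and 4 were lower, against 248 higher and 486 lower of the 6996 genes. The median was −0.14. It was 0.04 after median centring of the arrays and 0.03 without control replicate 3, so its sign depended on the scaling and on that array. Rps7, known to bind Mdm2, and Rps3a1 had the smallest p, with −0.80 ± 0.22 and −1.47 ± 0.46 (limma adjusted p = 0.425 for each). Without control replicate 1, Rplp0 was called higher and Rps20 lower in each single knockdown, with log2 changes of 1.57 and −1.03 with Dcp1a siRNA and 1.71 and −1.14 with Dcp2 siRNA. Among all tested probe sets, that setting called 331 higher and 41 lower with Dcp1a siRNA, and 188 and 35 with Dcp2 siRNA. Without control replicate 1 and Dcp2 siRNA replicate 2, 9 genes were called with Dcp2 siRNA against control, 4 higher and 5 lower, a setting chosen after seeing the data. Among all tested probe sets, 1018 were then called higher and 1401 lower, so calls rose across the array and not in these genes alone.

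The double knockdown was then set against each single knockdown, with the same 3 double knockdown arrays as above. Against Dcp1a siRNA, 22 of 41 rose and 0 fell (limma), where 8.27% of probe sets were called higher and 3.79% lower. The median log2 change was 1.14, against −0.09 over all genes. Without Dcp1a siRNA replicate 3 the count was 14. The 22 included Rpl7, Rpl7l1 and Rps19, which reached the limit for testing only with the double knockdown arrays. Against Dcp2 siRNA, 19 rose and 0 fell, where 6.12% of probe sets were called higher and 0.25% lower, with a median of 1.10 against 0.06 over all genes. The 19 included Rpl7, Rps19 and Rps4l, which also reached that limit only with the double knockdown arrays.

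The 4 genes with the largest rises were Rpl10a, Rpl19, Rps4x and Rpl7 against each single knockdown, 2 comparisons that share the double knockdown arrays. Against Dcp1a siRNA, Rpl10a rose by 4.67 ± 0.58 (limma adjusted p = 0.000574) and against Dcp2 siRNA by 4.06 ± 0.58 (adjusted p = 0.00167). Rpl19 rose by 4.17 ± 0.50 (adjusted p = 0.000446) and by 3.81 ± 0.50 (adjusted p = 0.00101). Rps4x rose by 3.89 ± 0.69 (adjusted p = 0.00441) and by 4.54 ± 0.69 (adjusted p = 0.0024). Rpl7, which did not pass against control, was at least 10.3-fold higher than with Dcp1a siRNA (adjusted p = 0.00937) and at least 10.6-fold higher than with Dcp2 siRNA (adjusted p = 0.00863). Rpl4 also passed against both, with 0.82 ± 0.21 (adjusted p = 0.0279) and 0.97 ± 0.21 (adjusted p = 0.0172), as did Rps7, with 0.93 ± 0.22 (adjusted p = 0.0215) and 1.14 ± 0.22 (adjusted p = 0.0103). Rps28 had 0.32 ± 0.18 and 0.21 ± 0.18 and Rps24 −0.43 ± 0.45 and −0.34 ± 0.45, none past the threshold.

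The departure from additivity asks whether both siRNAs together differed from the sum of the single changes. It was upward for 13 of 41 genes and downward for 0 (limma), where 3.9% of probe sets were called upward and 0.0345% downward. The 13 included Rpl7 and Rps19, which reached the limit for testing only with the double knockdown arrays. The median departure was 1.25, against −0.08 over all genes. Rps4x departed by 5.41 ± 0.98 (limma adjusted p = 0.0116), Rpl10a by 5.31 ± 0.82 (adjusted p = 0.00549) and Rpl19 by 4.68 ± 0.70 (adjusted p = 0.00481). Without control replicate 3, the high control for these genes, their departures were smaller, at 4.31, 4.47 and 3.99. Rps7 departed by 1.72 ± 0.32 (adjusted p = 0.0121), as it lay below control in both single knockdowns, at −0.59 and −0.80, and at 0.34 in the double knockdown. Rplp0 and Rplp2, at 0.28 ± 0.81 and 0.35 ± 0.41, did not pass.

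Genes of both subunits rose. In the double knockdown against control, 8 of 21 tested large subunit genes rose, with a median log2 change of 1.18, and 9 of 20 small subunit genes, with a median of 1.07. Over all genes 6.78% were called higher. The 9 included Rps19 and Rps4l, which reached the limit for testing only with the double knockdown arrays. So did Rpl7 and Rpl7l1 of the large subunit, which were not called. Restricted to subunit genes proper, 8 of 19 large subunit genes rose (median 1.50) and 8 of 17 small subunit genes (median 1.22). On every array the median of the large subunit genes, each set relative to its mean over the 12 arrays, lay within −0.18 to 0.30 of that of the small subunit genes. The departure from additivity was called for 5 of 21 large subunit and 8 of 20 small subunit genes, Rpl7 and Rps19 among them, against 3.7% of all genes called upward. No test of the difference between the subunits was run.

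**Figure D3:**
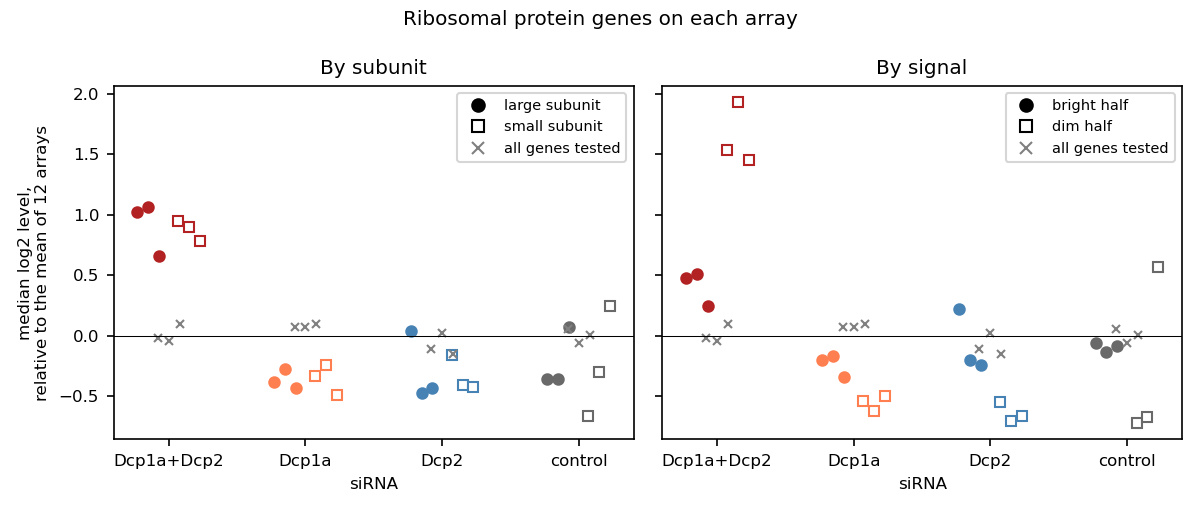
Median log2 level of the tested ribosomal protein genes on each array, relative to each gene's mean over the 12 arrays (vertical axis), by siRNA (horizontal axis), split by subunit (left) and into the 21 brighter and 20 dimmer genes (right). Points are arrays, and grey crosses are the median of all 6996 tested genes. The double knockdown arrays sit at 0.66 or higher in both subunits, and among the dimmer genes control replicate 3 is at 0.57 while the other controls are at −0.72 and −0.67.

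The size of the rise went with the signal of the probe set. Split at a mean log2 level of 9.04 (intensity 527), 5 of the 21 brighter genes rose in the double knockdown against control, with a median log2 change of 0.57, and 12 of the 20 dimmer genes, with a median of 1.95. Over all genes as bright as the brighter set, 2.54% were called higher (median −0.05), and over those as dim as the dimmer set 9.58% (median 0.04). Of the 20 dimmer genes, 4 reached the limit for testing only with the help of the double knockdown arrays (Rpl7, Rpl7l1, Rps19 and Rps4l). Without them, 10 of 16 dimmer genes rose, with a median of 1.95. In both sets the share of ribosomal protein genes called was above that of genes of like signal. Within the large subunit, 2 of 10 brighter and 6 of 11 dimmer genes rose, and within the small subunit 3 of 11 and 6 of 9. The last 6 included Rps19 and Rps4l, and the 11 included Rpl7 and Rpl7l1. Against Dcp1a siRNA the counts were 7 of 21 brighter and 15 of 20 dimmer genes, against 4.12% and 10.9% of all genes of like signal. The 15 included Rpl7, Rpl7l1 and Rps19, which reached the limit for testing only with the double knockdown arrays.

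Across the 41 genes, the log2 change against control correlated with the mean log2 level on the 6 single knockdown arrays, which do not enter that change, at Pearson's r of −0.61 and Spearman's rho of −0.67. This is a description across genes that share the same arrays. With the mean over all 12 arrays, rho was −0.58, against −0.10 over all 6996 genes. Exceptions stood on each side: Rpl41 and Rps29 were bright and rose, and Rps3a1, among the dimmer genes, was below control.

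**Figure D4:**
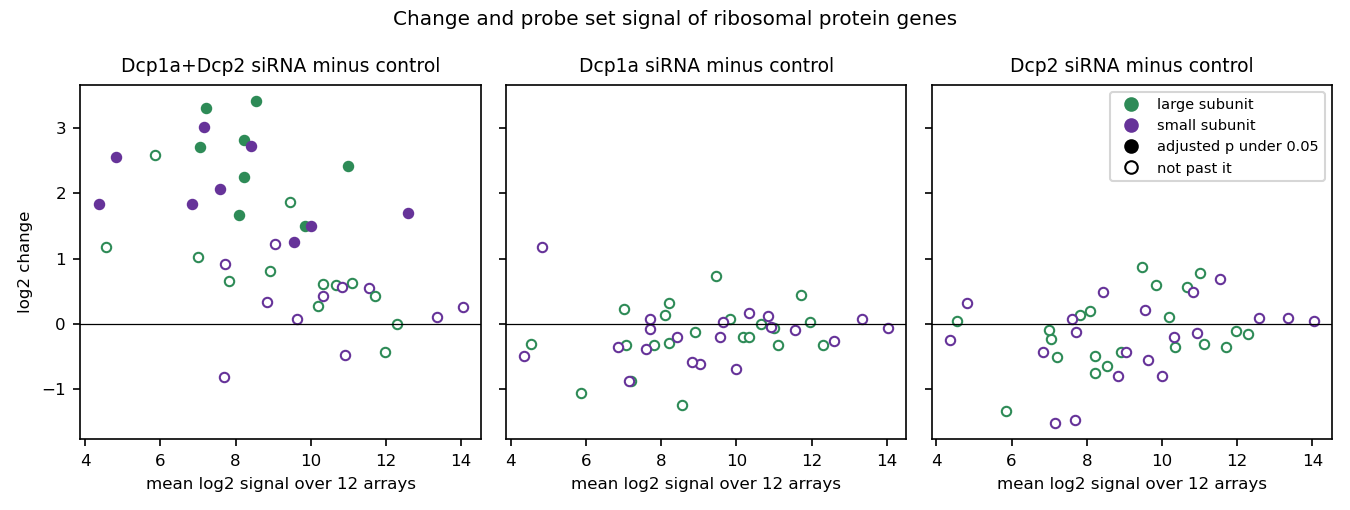
Log2 change of each tested ribosomal protein gene (vertical axis) against its mean log2 signal over the 12 arrays (horizontal axis), for the double, Dcp1a and Dcp2 knockdowns against control. Each point is a gene, filled where the adjusted p was under 0.05. In the left panel 12 of the 20 dimmer and 5 of the 21 brighter genes are filled, with the highest at 3.42, and no point is filled in the other panels.

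With the larger rises among the dimmer genes, the spread of signals was also narrower in the double knockdown, which is the same pattern on another scale. The SD of log2 levels over the 41 genes was 2.04, 1.95 and 1.95 on the double knockdown arrays, 2.51, 2.54 and 2.46 with Dcp1a siRNA, 2.64, 2.59 and 2.61 with Dcp2 siRNA, and 2.60, 2.66 and 2.16 in controls. Over all tested genes it was between 2.45 and 2.59 on every array. The median ribosomal protein intensity was 1274, 1465 and 1197 in the double knockdown, 459, 497 and 389 with Dcp1a siRNA, 494, 490 and 407 with Dcp2 siRNA, and 385, 480 and 762 in controls. Control replicate 3 was between the double knockdown and the other arrays on each measure.

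Control replicate 3 was the highest of the controls for 25 of 41 genes (61%), against 36.1% of all genes. For the 17 genes that rose in the double knockdown, it was above the mean of the other controls in 17, by a median of 1.28 on the log2 scale, and for the other 24 in 15, by a median of 0.18. Over all genes the median was 0.03. The signal of the 18S RNA control probe sets was lowest on that array as well, at log2 values of 10.21, 12.14 and 14.05 for the 3′, 5′ and middle probe sets, against 10.86 to 12.47, 12.71 to 14.22 and 14.37 to 15.08 on the other arrays. The part of this in the ribosomal protein values was not tested. Without control replicate 3, 20 of 41 genes were called in the double knockdown against control, the 17 above among them, and the median log2 change was 1.33. Within groups, the median SD of a ribosomal protein gene was 0.26 in the double knockdown, 0.16 with Dcp1a siRNA, 0.38 with Dcp2 siRNA and 0.49 in controls on the log2 scale, against 0.27, 0.15, 0.37 and 0.36 over all genes. The 3′ to 5′ difference of the Gapdh probe sets on the log2 scale was 7.26 to 7.39 in the double knockdown and 6.60 to 7.46 in controls. It was 7.32 to 7.78 with Dcp1a siRNA and 7.41 to 7.96 with Dcp2 siRNA. The double knockdown thus overlapped controls and Dcp1a siRNA and lay below every Dcp2 siRNA array. For Actb it was 7.47 to 7.61 in the double knockdown, 7.06 to 7.36 with Dcp1a siRNA, 6.47 to 7.84 with Dcp2 siRNA and 6.28 to 7.90 in controls, so the double knockdown lay above the Dcp1a siRNA arrays and above 2 of 3 controls. The part of this in the ribosomal protein values was not tested.

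Where a gene had further probe sets, these mostly agreed in sign with the brightest. For 17 genes with at least 2 tested probe sets, 31 of 33 further probe sets had the sign of the brightest one in the double knockdown against control, 12 were called higher and 0 lower. The change was larger than that of the brightest probe set in 22 of 33. The 31 include those of Rpl22, whose brightest probe set was at −0.00, so agreement in sign says little there. Rpl35, near the tunnel exit and chosen after its values were seen, showed the widest range: its brightest probe set had 0.63 ± 0.37 (limma adjusted p = 0.277), and the other 4 were called higher at 2.51, 2.57, 2.49 and 1.03. Rpl13a was the gene whose probe sets differed in sign, at −0.44, −0.12, 1.17 and 0.64, none past the threshold. The 4 probe sets of Rps24 lay between −0.48 and −0.22, and the 3 of Rps28 between 0.22 and 0.32.

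Ribosomal protein genes have many processed pseudogenes, and probes can match several of them. Of the 14 representative probe sets whose type marks probes shared between transcripts, 6 were called higher, with a median log2 change of 1.36. Of the other 27, 11 were called higher, with a median of 1.02. A further 83 tested probe sets carried several symbols of which at least 1 was a ribosomal protein gene. None of them names a gene here, but 35 were called higher and 0 lower in the double knockdown against control, where 6.62% of all tested probe sets were higher and 2.1% lower, with a median log2 change of 0.86. In each single knockdown against control 0 of the 83 were called in limma, with 2 higher and 5 lower at an unadjusted p under 0.05 with Dcp1a siRNA, and 1 higher and 6 lower with Dcp2 siRNA. At that p, 215 of the 6996 genes were higher and 128 lower with Dcp1a siRNA, and 248 and 486 with Dcp2 siRNA.

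Other genes with TOP mRNAs and the translation elongation factors were listed beside the ribosomal proteins. Of 24 such genes, 20 were tested, 1 rose in the double knockdown against control and 0 fell (limma), and their median log2 change was 0.03, against 6.78% called higher and a median of 0.00 over all genes. The gene that rose was Eif3k, a subunit of the initiation factor eIF3, with 0.77 ± 0.21 (adjusted p = 0.0478). Eef1a1, which brings aminoacyl-tRNA to the ribosome, read 1529, 1089 and 2576 in the double knockdown, 416.5, 484.9 and 538.7 with Dcp1a siRNA, 219.9, 282.0 and 236.0 with Dcp2 siRNA, and 359.5, 321.1 and 1263 in controls. As in many ribosomal protein genes, control replicate 3 was the highest control. Its log2 change was 1.63 ± 0.47 (limma adjusted p = 0.0559), and its departure from additivity, 2.87 ± 0.66, passed (adjusted p = 0.0354).

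Against Dcp1a siRNA, Eef1a1 rose by 1.77 ± 0.47 (limma adjusted p = 0.0329), the elongation factor subunit gene Eef1d by 2.13 ± 0.59 (adjusted p = 0.0386) and Eif3f, of eIF3, by 1.13 ± 0.28 (adjusted p = 0.0241). Against Dcp2 siRNA, Eef1a1 rose by 2.73 ± 0.47 (adjusted p = 0.00469) and Eif3f by 1.08 ± 0.28 (adjusted p = 0.0426). Eef1d and Eif3f were chosen after their values were seen.

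Eef2, the translocase of elongation, had a log2 change of 1.45 ± 0.41 (limma adjusted p = 0.0512). Tpt1, a highly translated TOP mRNA, had −0.20 ± 0.27 (limma adjusted p = 0.628).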

How the data were processed

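Total RNA of egg pools was amplified and labelled with Affymetrix's assay for small samples, per the labels' protocols. The deposited values are intensities on a linear scale with a floor of 4.9, made by the authors with GCRMA, per the submitters' processing notes (version not given in the sources used here). The method adjusts background and normalizes between arrays, so values are relative within an array. The number of arrays limits the precision.

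The deposited intensities were taken to log2. Probe sets with log2 above 5 (intensity above 32) on at least 3 of 12 arrays were tested, 11593 of 45101, after 64 controls were left out. Groups were compared with limma 3.58.1 in R 4.3.3 (lmFit on group means over the 12 arrays, eBayes without trend, 8 residual and 2.97 prior degrees of freedom). All p-values are two-sided and Benjamini-Hochberg adjusted over the 11593 probe sets in each of 6 comparisons and a threshold of 0.05. Errors are standard errors of the fit. The procedure was tested on simulated data with changes added to the double knockdown arrays, in probe sets well above the limit for testing. Of 100 changes of 2-fold 23 were called, and of 100 changes of 4-fold 80, with 8 false calls. A gene not past the threshold is therefore not shown to be unchanged. Where the dimmer group had a mean or median log2 at or under 5, the fold is a bound that sets lower values to 32. It allows for the floor and not for replicate spread.

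Genes were named from probe sets with 1 symbol in the platform annotation, and the symbols of 52 of 52 genes matched RefSeq (GRCm38.p6) by Entrez number. The genes, the lists and the marker sets were chosen with earlier results of these data known. Values are given for the 14 largest rises, the smallest and lowest changes, the brightest and dimmest genes, the P-stalk, 5S RNP, fusion and paralog genes, and the leading genes of each other comparison. Other genes named, and the motifs, were chosen after their values were seen. Replicate numbers are not stated to mark a shared batch, so the main fits did not pair the arrays. Of 18 same-numbered pairs, 9 had deviations correlated above 0.1 (r −0.685 to 0.394), which does not settle whether the arrays were paired.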

Additional observations from a re-analysis of the deposited data

Results flagged for a closer look

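The change by Dcp2 siRNA differed between eggs with and without Dcp1a siRNA for 13 of the 41 tested ribosomal protein genes, all with an upward departure from additivity (limma, adjusted p under 0.05), where 3.9% of all tested probe sets departed upward, with Rps4x, Rpl10a and Rpl19 among them. The probe sets with several symbols, which lie outside the gene-level comparisons, also carried a signal: 35 of 83 were called higher in the double knockdown against control and 0 lower, where 6.62% of all tested probe sets were higher and 2.1% lower.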

How the results depend on the processing

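In the double knockdown against control, no named gene past the threshold changed sign in any setting run. Below the threshold, Rpl13a was −0.44 in the double knockdown against control and 0.31 with the mean of all its tested probe sets, Rps14 was 0.07 and −0.08 without double knockdown replicate 3, Rps27l was 0.11 and −0.06 without control replicate 3, and the median with Dcp2 siRNA against control was −0.14 and 0.04 after median centring. Without control replicate 3, the medians of −0.20 with Dcp1a siRNA and −0.14 with Dcp2 siRNA against control were 0.04 and 0.03. In the double knockdown against control, 17 of 41 genes were called, with 7 when no probe set was filtered, 5 when only the arrays of the groups compared were fitted, which leaves fewer arrays to estimate the spread, and 10 to 20 when each array was left out in turn. Over all probe sets, 768 were called higher, with 458, 226 and 368 to 1816 in these settings. The median log2 change of 1.18 of the ribosomal protein genes was 0.72 without the filter, which adds genes at the floor, and 0.93 with values under 32 set to 32, and 0.98 to 1.33 when each array was left out. Without the filter the calls were 10 against Dcp1a siRNA, 10 against Dcp2 siRNA and 2 for the departure, and leaving out arrays gave 14 to 24, 15 to 22 and 9 to 16. For each single knockdown against control, leaving out arrays gave 0 to 2 calls, and leaving out control replicate 1 and Dcp2 siRNA replicate 2 together gave 2 with Dcp1a siRNA and 9 with Dcp2 siRNA. Without those arrays, all tested probe sets gave 540 higher and 87 lower with Dcp1a siRNA, and 1018 and 1401 with Dcp2 siRNA. With the 83 tested probe sets of several symbols added to the 41 genes, the calls were 52 against control, 65 against Dcp1a siRNA, 53 against Dcp2 siRNA and 40 for the departure. This alternative was chosen after seeing the data. These counts mix genes and probe sets, and some of the added probe sets carry the symbol of a gene already counted. Over all tested probe sets, 6.62%, 8.27%, 6.12% and 3.9% were called upward in these comparisons. With the replicate number as a block, the calls were 16 against control, 0 in each single knockdown, 19 against Dcp1a siRNA, 18 against Dcp2 siRNA and 11 for the departure; 3 of 12 arrays correlated best with an array of their own number. The median change of all probe sets was −0.11 as deposited and 0.07 after median centring with Dcp2 siRNA against control, 0.09 and −0.02 with Dcp1a siRNA against control, and 0.06 and −0.15 for the double knockdown against Dcp2 siRNA, where 15 genes were called after centring. Of the 17 genes called against control, 10 were called in all 12 fits that left out an array: Rpl10a, Rpl19, Rps15, Rpl6, Rps4l, Rpl41, Rps19, Rps26, Rpl37a and Rps20. Among them, Rps4l and Rps19 reached the limit for testing only with the double knockdown arrays. The choice of tested probe sets from all 12 arrays was kept in these fits. For the 29 named genes tested, other settings gave 295 values with the same call, 6 newly past the threshold and 16 no longer past it, and leaving out arrays gave 332, 4 and 12. Where not stated, the cause was not tested. Signal near the floor limits Rps19, Rps4l, Rpl7, Rpl7l1 and the untested genes.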
